A study of Mus musculus with 9 samples.

Results

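Serum amyloid A and related acute phase genes were followed liver by liver through regeneration after partial hepatectomy, with and without inhibition of the phosphatase SHP2. The 10 genes were *Saa1*, *Saa2*, *Saa3*, *Saa4*, *Orm1*, *Orm2*, *Lcn2*, *Hp*, *Apcs* and *Itih4*, found by their names among 43346 genes listed in the count table. All 10 were among the 15024 genes with enough reads to be tested. Whole livers of male C57BL/6J mice aged 12 weeks (strain C57/BL6 in the sample records) were profiled by bulk RNA-Seq in 3 groups of 3. The baseline group (0 h) held lobes removed from vehicle-treated mice at surgery. The vehicle group at 40 h and the NSC group at 40 h held the remnant left after 70% hepatectomy. Vehicle was normal saline. NSC, short for NSC-87877, is a small molecule that blocks SHP2 and the related phosphatase SHP1, and NSC-treated mice received 7.5 mg/kg i.p. at each of 2 daily doses. The sample records start dosing 12 h before the operation, while the paper's methods start it on the day before. No lobes resected from NSC-treated mice were analysed here, so both 40 h groups were set against the same 3 vehicle-treated baselines, and both of those comparisons share them. The sources used here do not say if same-numbered baseline and vehicle 40 h samples belong to 1 mouse. NSC remnants came from other mice than the baselines. Baseline and remnant also differ in lobe, so time after surgery and lobe cannot be told apart.

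The acute phase response is the change in secretion by the liver after injury, infection or surgery. Macrophages and other cells release IL-6 and IL-1; IL-6 acts through gp130, JAK kinases and STAT3, IL-1 acts through NF-κB, and together with C/EBP factors they raise transcription of positive acute phase genes in hepatocytes, while negative ones such as albumin are made less. SAA1 and SAA2 are apolipoproteins of high-density lipoprotein that hepatocytes secrete in large amounts during inflammation. SAA3 is inducible too and is also made by macrophages and adipocytes, and SAA4 is the constitutive form. ORM1 and ORM2 are α1-acid glycoproteins, LCN2 is a siderophore-binding lipocalin, and haptoglobin (HP) binds free hemoglobin. Serum amyloid P (APCS) is a pentraxin, a major acute phase reactant of the mouse, and ITIH4 is a plasma protein of the inter-α-trypsin inhibitor family.

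These genes were chosen because earlier results from the same counts were known. Their levels and fold changes are therefore a description, and no p-value is given for them. In bulk liver, fewer cells of a type and less RNA per cell cannot be told apart.

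The 4 *Saa* genes lie together on chromosome 7 of the mouse build GRCm38, with *Saa3* at 46711998 to 46715676, *Saa4* at 46728017 to 46732543, *Saa1* at 46740501 to 46742980 and *Saa2* at 46751833 to 46754314 in the deposited table. *Orm1* (63344560 to 63348163) and *Orm2* (63362449 to 63365878) are neighbors on chromosome 4. Of the remaining genes, *Lcn2* is on chromosome 2 (32384633 to 32388252), *Hp* on chromosome 8 (109575130 to 109579172), *Apcs* on chromosome 1 (172893961 to 172895041) and *Itih4* on chromosome 14 (30886476 to 30901981). The RefSeq promoter table (GRCm38.p6) matched 8 of the 10 genes, all except *Orm1* and *Hp*. The sequences upstream of the 4 *Saa* genes are shown because *Saa3* had a different pattern across livers from *Saa1* and *Saa2*. Each is read 5′ to 3′ on the gene's strand and ends before the first annotated exon. Capitals mark matches to the letters TTNCNNNAA on either strand. This pattern is longer than the C/EBP core, so it does not tell where C/EBP sites lie.
Saa1, minus strand of chr7:46742981-46743230: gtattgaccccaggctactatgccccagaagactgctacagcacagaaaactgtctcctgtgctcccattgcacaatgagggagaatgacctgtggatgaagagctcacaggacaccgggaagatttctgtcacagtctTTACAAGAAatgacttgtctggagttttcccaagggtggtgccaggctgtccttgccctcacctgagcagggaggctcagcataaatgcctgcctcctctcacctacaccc
Saa2, plus strand of chr7:46751583-46751789: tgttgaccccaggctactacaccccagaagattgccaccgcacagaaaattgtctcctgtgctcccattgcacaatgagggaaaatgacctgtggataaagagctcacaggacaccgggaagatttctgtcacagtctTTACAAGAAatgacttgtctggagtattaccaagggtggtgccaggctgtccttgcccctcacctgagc
Saa3, minus strand of chr7:46715701-46715926: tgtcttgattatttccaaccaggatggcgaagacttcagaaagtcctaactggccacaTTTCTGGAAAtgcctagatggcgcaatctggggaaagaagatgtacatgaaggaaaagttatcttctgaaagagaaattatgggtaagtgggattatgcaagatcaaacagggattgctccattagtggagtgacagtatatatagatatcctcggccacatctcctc
Saa4, minus strand of chr7:46732604-46732853: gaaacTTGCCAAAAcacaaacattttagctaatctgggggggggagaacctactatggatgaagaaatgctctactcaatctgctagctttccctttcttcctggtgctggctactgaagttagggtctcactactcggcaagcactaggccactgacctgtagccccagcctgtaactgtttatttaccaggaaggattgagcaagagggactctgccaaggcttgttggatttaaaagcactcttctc

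Over the 250 bases before the transcription start, *Saa1* and *Saa2* were 94.8% identical in an alignment (238 of 251 columns), whereas *Saa1* and *Saa3* shared 52.5% (145 of 276 columns). The letters TTNCNNNAA began 111 bases before the start of *Saa1* and 112 bases before that of *Saa2*, in the same surrounding sequence. In *Saa3*, 2 overlapping matches began 192 and 191 bases before the start. On either strand, these letters were found in 7 of the 8 promoter windows (not in that of *Lcn2*, which overlaps annotated exons and is not shown) and in 32.9% of all 32851 RefSeq promoter windows of the same length. The STAT letters TTCNNNGAA were found in *Apcs* and *Itih4*, in both cases overlapping a match to TTNCNNNAA, and in 7.02% of all windows. The NF-κB motif was found in none of the 8 windows and in 3.90% of all windows. A match describes letters only, and the absence of a match says nothing about the factor.

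The paralogs are similar enough for reads to be shared, so their coding sequences were compared as well. A stretch of 90 bases is shown, from coding base 60 to base 149 of 369 (counted from the A of the start codon in GENCODE M21 transcripts), with capitals where *Saa2* or *Saa3* differs from *Saa1*.
Saa1: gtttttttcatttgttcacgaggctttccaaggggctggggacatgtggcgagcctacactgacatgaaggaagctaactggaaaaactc
Saa2: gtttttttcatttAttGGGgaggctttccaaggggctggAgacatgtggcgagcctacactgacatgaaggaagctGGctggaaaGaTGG
Saa3: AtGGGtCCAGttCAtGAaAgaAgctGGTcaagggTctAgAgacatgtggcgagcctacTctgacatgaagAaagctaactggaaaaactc
*Saa2* differed from *Saa1* at 11 of these positions and *Saa3* at 22. Over the whole coding sequence, *Saa1* and *Saa2* were 95.1% identical, *Saa1* and *Saa3* 77.0%, and *Orm1* and *Orm2* 89.9%. Of all 50-base stretches of the transcript, 14.8% of *Saa1*, 13.3% of *Saa2*, 1.78% of *Saa3*, 20.4% of *Orm1* and 22.7% of *Orm2* also occurred in another gene. For 100-base stretches this was 6.95% for *Orm1* and for *Orm2*, and 0 for the *Saa* genes. How reads that fit more than 1 gene were counted is not given in the sources used here, so the split within *Saa1* and *Saa2* and within *Orm1* and *Orm2* is uncertain.

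The libraries held 23997363 to 42887589 counted reads. Levels are in CPM, the share of a library's counted reads scaled to a common depth, and 3 counts corresponded to 0.0751 to 0.117 CPM. CPM values are scaled by the trimmed mean of M values (TMM). One baseline liver stood apart. In baseline replicate 2, all 10 genes were higher than in both other baseline livers, which was true of 36.5% of all tested genes, and their median difference from the other 2 was 1.57 on the log2 scale. *Saa3*, *Saa2* and *Lcn2* were 12.2, 8.68 and 8.31 times the mean of the other 2 baseline livers, and *Itih4* was 1.17 times that mean. This liver was above the lowest vehicle liver at 40 h for 4 of the 10 genes (the 4 *Saa* genes) and above all 3 of them for *Saa3*. Its summed neutrophil markers were the lowest of the 9 livers at 2.26 CPM, and its macrophage markers were likewise the lowest at 182 CPM. It was kept in the main results. Fold changes of the 10 genes against baseline, and the counts of the gene lists, are also given without it.

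Per length, the 10 genes ranged widely. In FPKM, which corrects the count for gene length and depth, *Hp* was highest at baseline at 4821 ± 1961 (mean ± SD, n = 3), followed by *Saa1* at 2906 ± 2646, *Saa2* at 1783 ± 2220 and *Orm1* at 1516 ± 533. These neighbors did not differ beyond their spread. *Orm2* (91.0 ± 100.4), *Saa3* (75.1 ± 102.5) and *Lcn2* (29.9 ± 36.7) were lowest, also with overlapping spreads. Without baseline replicate 2 (mean of the other 2 livers), *Hp* was at 3718, *Saa1* at 1378, *Orm1* at 1223 and *Saa2* at 501, so that *Orm1* came before *Saa2*, and *Orm2* (33.1), *Saa3* (15.9) and *Lcn2* (8.73) remained lowest. At 40 h with vehicle the order was led by *Hp* (11440 ± 954), *Saa1* (7493 ± 2960.1), *Saa2* (5465 ± 2331) and *Orm1* (4879 ± 984), and *Saa3* was lowest at 60.0 ± 3.44. With NSC, *Saa1* led at 12004 ± 3558, ahead of *Hp* (9540 ± 1708) and *Saa2* (8362 ± 2874), within their spreads, and *Saa4* was lowest at 258.9 ± 59.4. Among all tested genes ranked by FPKM, *Saa1* ran from rank 44 in a baseline liver to rank 3 in all 3 NSC livers, *Saa3* from rank 2606 to rank 64, and *Lcn2* from rank 4302 to rank 74. Together the 10 genes took 0.980% to 2.19% of counted reads at baseline, 3.01% to 4.06% at 40 h with vehicle and 3.04% to 4.64% at 40 h with NSC.

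**Figure D1:**
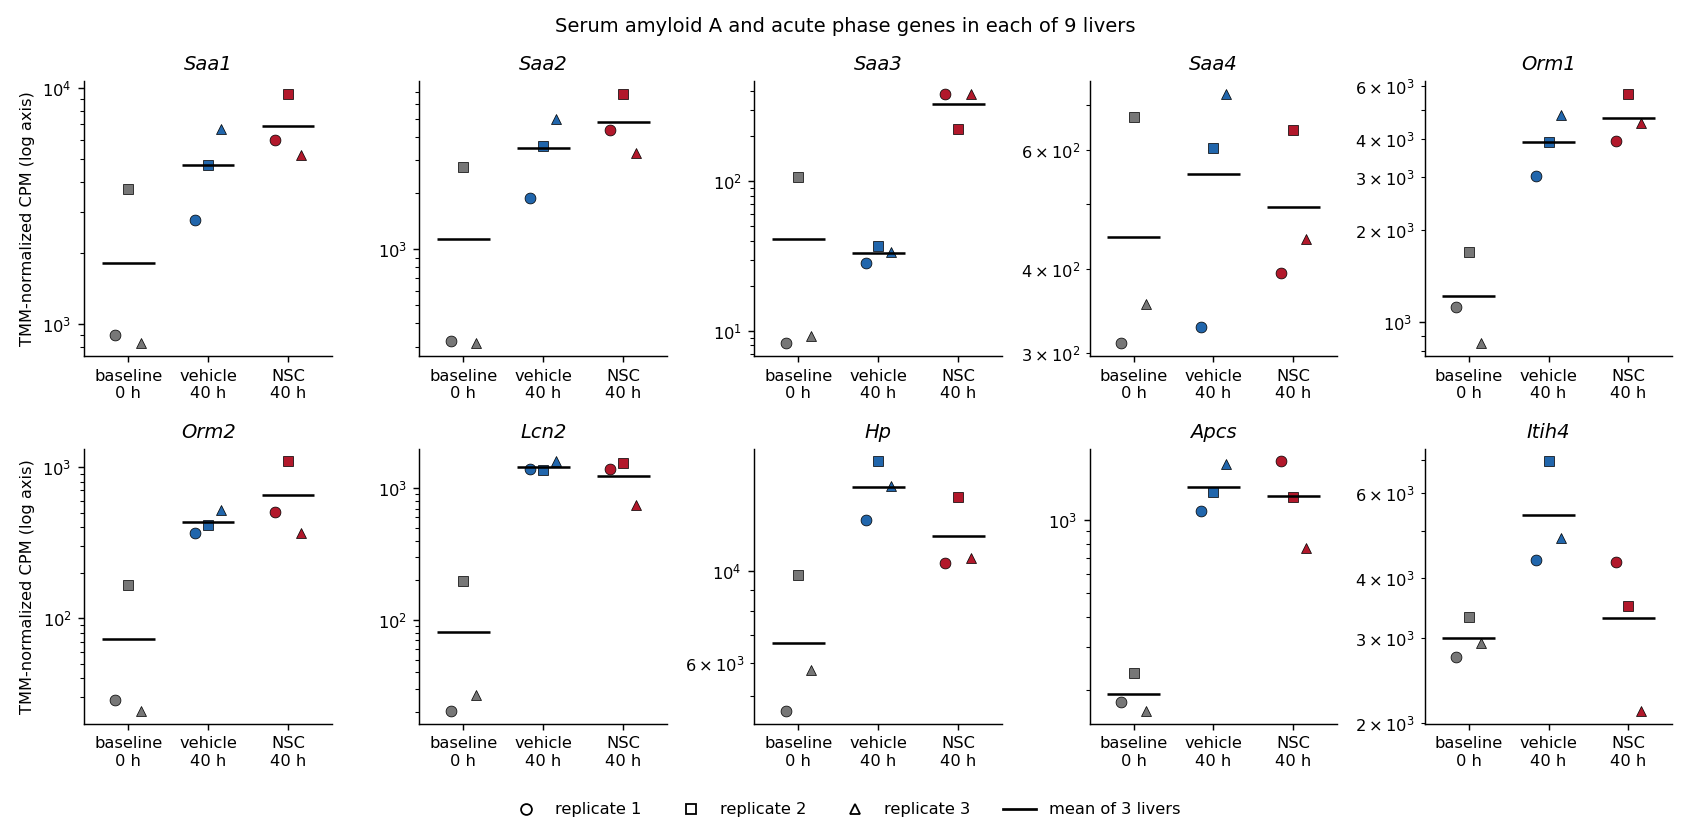
TMM-normalized CPM (log axis) of each of the 10 genes in 9 livers, with 3 livers per group and black lines at the group mean. Marker shape gives the replicate number. Baseline replicate 2 is the highest baseline liver in every panel, and the 3 NSC livers lie above all 6 other livers for *Saa3*.

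*Saa1*, the main hepatic serum amyloid A, was at 899, 3744 and 831 CPM in baseline replicates 1 to 3. The vehicle remnants at 40 h had 2765, 4712 and 6672 CPM, and the NSC remnants 6006, 9461 and 5179 CPM. The 3 NSC livers were above every baseline liver, whereas baseline replicate 2 lay within the range of the vehicle remnants, and the 2 remnant groups overlapped. The fitted log2 fold change was 1.37 ± 0.62 (SE) for vehicle against baseline, 1.92 ± 0.63 for NSC against baseline and 0.55 ± 0.61 for NSC against vehicle.

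*Saa2*, its close paralog, had 322, 2752 and 313 CPM at baseline. At 40 h it had 1872, 3585 and 4970.5 CPM with vehicle and 4373, 6832 and 3297 CPM with NSC. Livers fell in nearly the same order as for *Saa1*, with baseline replicate 2 again among the remnants. The log2 fold changes were 1.62 ± 0.90, 2.10 ± 0.91 and 0.48 ± 0.88 in the same order of comparisons.

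*Saa3*, the form also made outside hepatocytes, set the NSC group apart. It was at 8.25, 106.7 and 9.27 CPM at baseline and at 28.3, 37.0 and 33.7 CPM in vehicle remnants. The NSC remnants had 382, 224 and 386 CPM. The lowest NSC liver was 6.06 times the highest vehicle remnant, and the ratio of the group means was 10.02. The vehicle remnants were close to each other, with the highest 1.31 times the lowest, while the baseline spanned 12.9 times. Relative to vehicle at 40 h, the log2 fold change with NSC was 3.33 ± 1.03. It stayed between 3.20 and 3.54 under all 17 alternatives, and the gene passed the threshold used for all genes (adjusted p under 0.05) in 3 of them but not in the fit with all 9 livers. These 3 were edgeR's exact test, the fit of only the 2 remnant groups and the fit without baseline replicate 2. None of them included baseline replicate 2, and without that liver alone the value was 3.32 ± 0.23. Against baseline, the log2 fold change was -0.33 ± 0.95 for vehicle and 3.00 ± 1.02 for NSC. Without baseline replicate 2, these became 1.91 ± 0.26 and 5.24 ± 0.30, so the sign for vehicle turned on that liver.

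*Saa4*, the constitutive form, varied by 2.17 times or less within the baseline and NSC groups and by 2.22 times among vehicle remnants. It had 310.2, 672 and 355 CPM at baseline, 328, 604 and 728 CPM with vehicle and 394, 644 and 443 CPM with NSC. All 3 groups overlapped, and the log2 fold changes were 0.31 ± 0.35, 0.15 ± 0.35 and -0.17 ± 0.35.

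*Orm1* had 1118, 1692 and 848 CPM at baseline. The vehicle remnants reached 3028, 3908 and 4796 CPM and the NSC remnants 3947, 5653 and 4519 CPM. Both remnant groups lay above all baseline livers and overlapped with each other. The log2 fold changes were 1.68 ± 0.28 and 1.95 ± 0.28 against baseline and 0.27 ± 0.27 between remnants.

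*Orm2* started much lower, at 28.9, 166.4 and 24.3 CPM, and reached 364, 411 and 518 CPM with vehicle. With NSC it had 502, 1089 and 366 CPM, a range of 2.97 times, compared with 1.43 times among vehicle remnants. Here too every remnant was above every baseline liver. The log2 fold changes were 2.56 ± 0.82, 3.16 ± 0.84 and 0.60 ± 0.77.

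*Lcn2* had the largest fitted change of the 10 genes against baseline, both with vehicle and with NSC. It was at 20.3, 197 and 27.1 CPM at baseline, and the vehicle remnants had 1395, 1369 and 1597 CPM. The NSC remnants had 1394, 1550.5 and 747 CPM, so replicate 3 was well below the others. All remnants were above all baseline livers, with log2 fold changes of 4.16 ± 0.93 for vehicle and 3.92 ± 0.92 for NSC. Between remnants it was -0.24 ± 0.82.

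*Hp*, an abundant plasma protein gene already at baseline, had 4579.8, 9788 and 5760.1 CPM there. At 40 h it had 13274, 18389 and 16071 CPM with vehicle and 10466, 15123 and 10745 CPM with NSC. Both remnant groups were above all baseline livers, and they overlapped with each other. The log2 fold changes were 1.25 ± 0.29, 0.85 ± 0.28 and -0.39 ± 0.28.

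*Apcs* combined a large fitted change with a small standard error. It had 179, 234 and 163 CPM at baseline, 1093, 1304 and 1702 CPM with vehicle and 1747, 1249 and 766 CPM with NSC. The log2 fold changes against baseline were 2.83 ± 0.30 and 2.71 ± 0.30, and leaving out baseline replicate 2 gave 3.00 and 2.87. Between remnants it was -0.12 ± 0.28.

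*Itih4* differed from the rest in that its NSC remnants were all below its vehicle remnants. It had 2745, 3318 and 2925 CPM at baseline and 4344, 6968 and 4837 CPM with vehicle, all above baseline. The NSC remnants had 4314, 3488 and 2113 CPM, which overlapped with baseline, and the margin between the highest NSC and the lowest vehicle liver was small. The log2 fold changes were 0.85 ± 0.27 for vehicle, 0.14 ± 0.27 for NSC and -0.70 ± 0.27 for NSC against vehicle.

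In counts, 5 of the 10 genes passed the threshold with vehicle against baseline (*Orm1*, *Lcn2*, *Hp*, *Apcs* and *Itih4*), all higher, where 12.7% of all tested genes passed in that direction. With NSC against baseline, 6 passed (*Saa1*, *Orm1*, *Orm2*, *Lcn2*, *Hp* and *Apcs*), all higher, beside 18.2% of all genes. Between the remnants none of the 10 passed by edgeR's quasi-likelihood test, beside 0.0399% of all genes (6 genes, all lower with NSC). In that comparison 2 of the 10 had an unadjusted p under 0.05 (19.5% of all genes), 1 passed by edgeR's exact test (1.77% of all genes) and none by DESeq2 (5.58% of all genes). With the added limit of an absolute log2 fold change over 1.5, 3, 5 and 0 of the 10 passed, beside 7.22%, 8.13% and 0.02% of all genes. In either direction, 23.7%, 34.7% and 0.0399% of all genes had an adjusted p under 0.05. The groups did not overlap and the first was higher for 6 genes (vehicle against baseline, 24.2% of all genes), 8 genes (NSC against baseline, 24% of all genes) and 1 gene (NSC against vehicle, *Saa3*, 10.3% of all genes). The reverse held between the remnants for 1 gene, *Itih4*, beside 12.2% of all genes. The median log2 fold change of the 10 was 1.496, 2.02 and 0.07, while the median of all tested genes was 0.01, 0.01 and 0.02. The choice of genes used these comparisons, so nothing is read from the counts.

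Single livers decided several of these counts. Without baseline replicate 1, baseline replicate 3 or NSC replicate 2, 3 of the 10 passed with NSC against baseline. Of all genes, 26.9%, 23.4% and 25.6% passed in these fits, so 3 of 10 was near the share of all genes. Without baseline replicate 2, 8 of the 10 genes passed with vehicle and 8 with NSC, all except *Saa4* and *Itih4* in both, beside 18.9% and 28.7% of all genes. *Itih4* no longer passed with vehicle (0.93 with that liver left out), although its fold change was slightly larger. Between the remnants 1 gene passed, *Saa3* (3.32 ± 0.23), beside 0.0196% of all genes. With vehicle against baseline, the log2 fold change became 2.45 for *Saa1*, 3.46 for *Saa2*, 0.74 for *Saa4*, 1.99 for *Orm1*, 4.02 for *Orm2*, 5.94 for *Lcn2* and 1.62 for *Hp*. With NSC against baseline, the corresponding values were 2.99, 3.93, 0.57, 2.26, 4.62, 5.70 and 1.23, and *Itih4* was at 0.22. The largest standard error among the 10 genes fell from 0.95 to 0.48 with vehicle and from 1.02 to 0.49 with NSC.

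**Figure D2:**
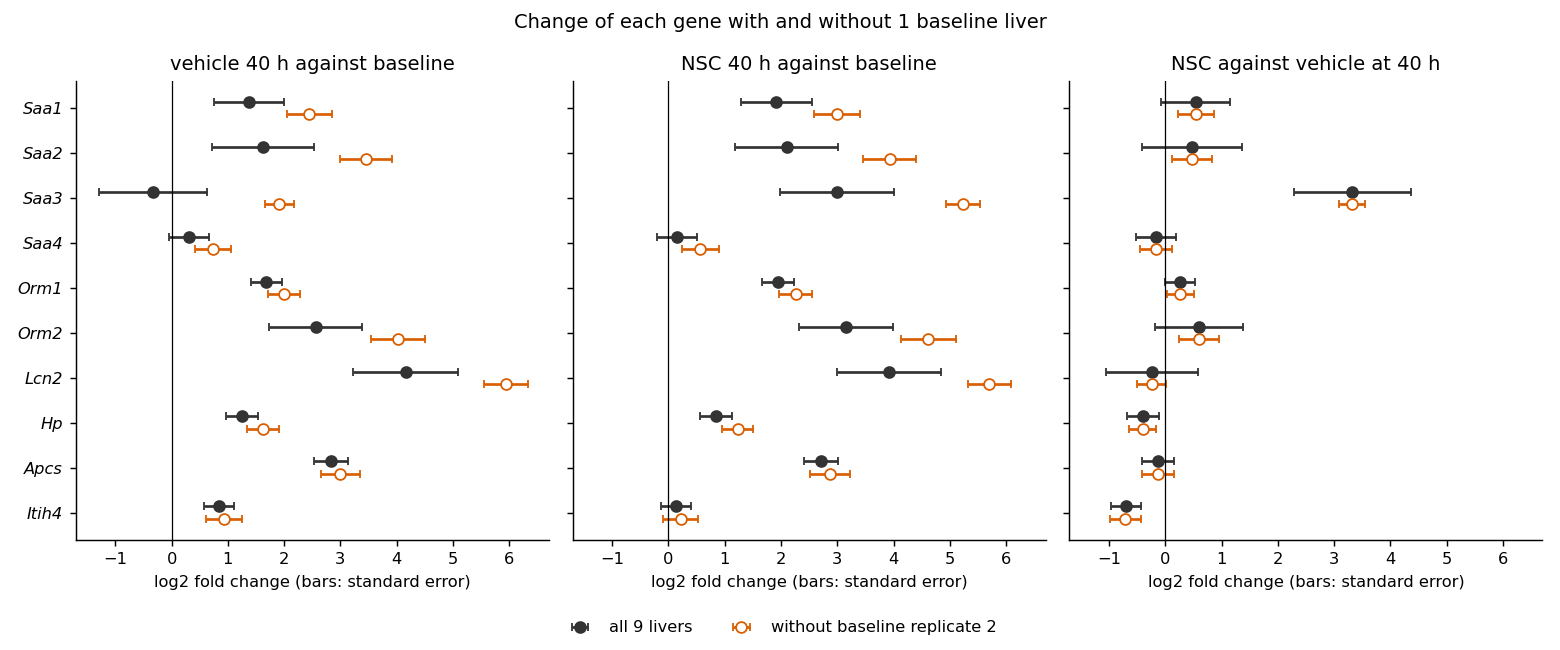
Log2 fold change of each gene (points) with its standard error (bars) in the 3 comparisons, from the fit with all 9 livers (filled) and without baseline replicate 2 (open). Leaving that liver out moves *Saa3* from -0.33 to 1.91 for vehicle against baseline, and *Saa3* is the only gene beyond 1 in the comparison of the remnants in either fit.

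Ratios within a liver do not depend on scaling between livers. *Saa3* per 100 *Saa1* (ratio of FPKM) was 1.04, 3.25 and 1.27 at baseline, 1.17, 0.893 and 0.576 in vehicle remnants and 7.25, 2.70 and 8.49 in NSC remnants. The NSC livers were all above the vehicle remnants, and NSC replicate 2 was below baseline replicate 2. *Saa2* per 100 *Saa1* was 35.5 and 37.3 in baseline replicates 1 and 3 and 72.9 in baseline replicate 2. It lay between 63.2 and 75.5 in all 6 remnants. *Saa4* per 100 *Saa1* was 5.39 to 12.8 at baseline, 3.28 to 3.86 with vehicle and 1.97 to 2.57 with NSC, with no overlap between groups. Neither gene alone separated the remnant groups, and such ratios were not computed over all genes, so nothing is read from this. *Orm2* per 100 *Orm1* was 2.59 and 2.86 in baseline replicates 1 and 3, 9.84 in baseline replicate 2, 10.5 to 12.0 with vehicle and 8.11 to 19.3 with NSC.

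**Figure D3:**
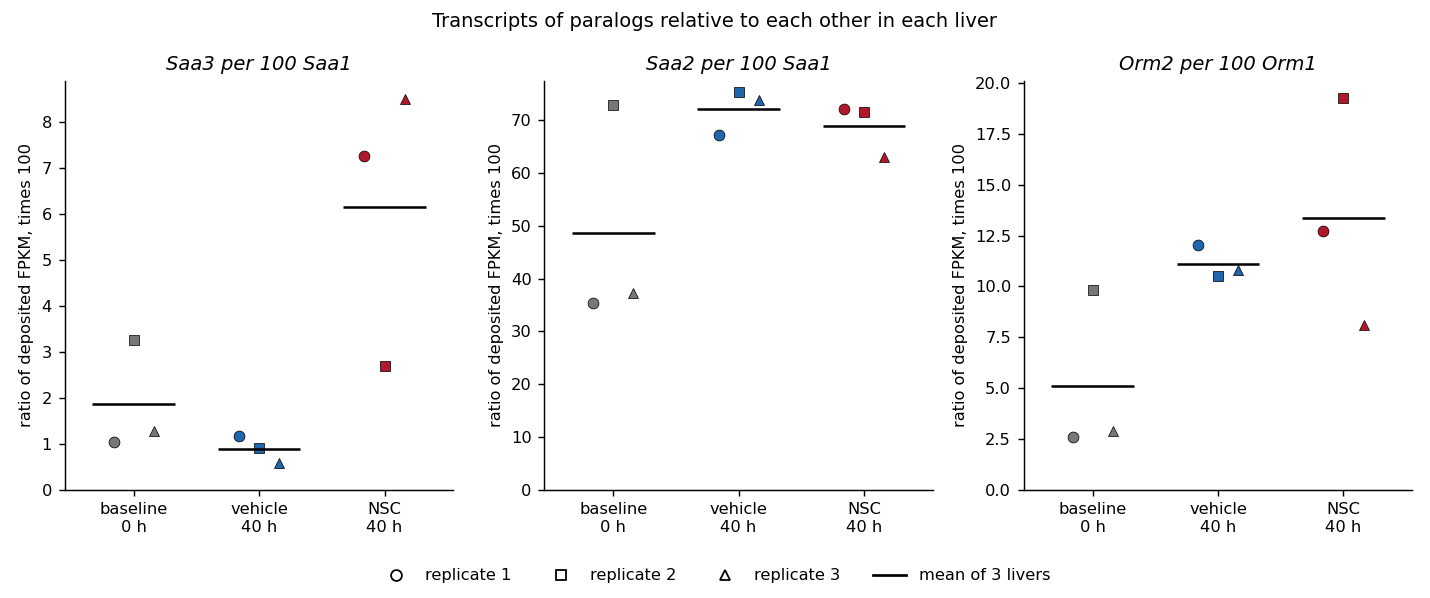
Ratio of deposited FPKM, times 100, for *Saa3* to *Saa1*, *Saa2* to *Saa1* and *Orm2* to *Orm1* in each of 9 livers, with black lines at the mean of 3. The *Saa3* ratio is 2.70 to 8.49 in NSC remnants and 0.576 to 1.17 in vehicle remnants. Baseline replicate 2 lies near the remnants for *Saa2* and *Orm2*.

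Other positive acute phase genes were mostly higher at 40 h than at baseline. Of 24 such genes, 15 rose and 0 fell with vehicle against baseline (median log2 fold change 1.26), where 12.7% of all tested genes rose and 11% fell. With NSC 10 rose and 1 fell (median 0.65), beside 18.2% and 16.5% of all genes. *Fgl1*, a liver-secreted fibrinogen-like protein, rose from a mean of 649 CPM to 2551 CPM with vehicle and 2502 CPM with NSC (log2 fold change 1.97 ± 0.22, adjusted p = 0.00014, and 1.95 ± 0.22, adjusted p = 0.000109). The hemopexin gene *Hpx*, whose product binds heme, rose by 1.73 ± 0.28 (adjusted p = 0.00117) and 1.68 ± 0.28 (adjusted p = 0.000918). *Fga*, the α chain of fibrinogen, rose by 1.61 ± 0.25 (adjusted p = 0.000961) and 1.12 ± 0.24 (adjusted p = 0.00433). *Itih3*, of the same family as *Itih4*, rose by 1.43 ± 0.25 with vehicle (adjusted p = 0.0022), and *Fgg*, the γ chain of fibrinogen, by 1.12 ± 0.25 with NSC (adjusted p = 0.005). The complement gene *C4b* fell by 1.01 with NSC (SE 0.21, adjusted p = 0.00299).

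In the comparison of the remnants, none of the 24 passed by edgeR's quasi-likelihood test. Of these, 8 had an unadjusted p under 0.05 (19.5% of all genes), 4 passed by DESeq2 (5.58% of all genes) and 3 by edgeR's exact test (1.77% of all genes). These shares of all genes are the background for such counts in the other lists as well. The median was -0.48 and 8 genes were lower in all NSC than in all vehicle livers, beside 12.2% of all genes. *Lbp*, which encodes the LPS-binding protein, was at 291, 307 and 288 CPM with vehicle and at 160.3, 157.3 and 79.4 CPM with NSC (-1.16 ± 0.23, adjusted p = 0.0849). *C4b* was at -0.80 ± 0.20 (adjusted p = 0.0949).

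**Figure D4:**
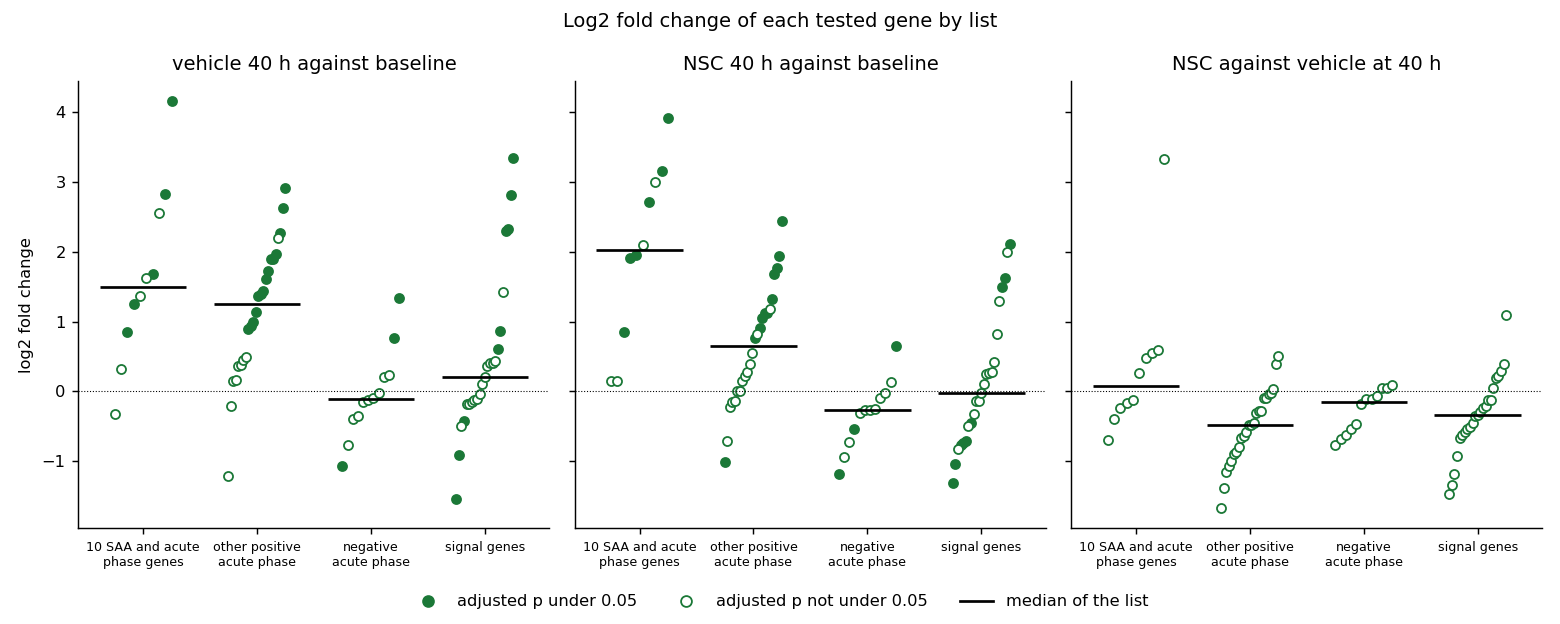
Log2 fold change of each tested gene in 4 lists for the 3 comparisons, filled where the adjusted p was under 0.05, with black lines at the list median. In the comparison of the remnants the medians are 0.07 for the 10 genes described here, -0.48 for other positive acute phase genes, -0.15 for negative ones and -0.33 for signal genes, and no point is filled.

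Negative acute phase genes moved in both directions. Of 12, 2 rose and 1 fell with vehicle (median -0.11), and 1 rose and 2 fell with NSC (median -0.27). Of all tested genes, 12.7% rose and 11% fell with vehicle, and 18.2% rose and 16.5% fell with NSC. Nothing is read from the counts of negative genes beside these shares. The same shares are the background for such counts in the lists that follow. *Ahsg*, which encodes fetuin-A, rose by 1.33 ± 0.21 (adjusted p = 0.00101) with vehicle and 0.65 ± 0.20 (adjusted p = 0.0263) with NSC. *Trf*, the transferrin gene, rose by 0.76 ± 0.22 with vehicle (adjusted p = 0.0241). *Apoa2*, an apolipoprotein of high-density lipoprotein as SAA1 is, fell by 1.07 (SE 0.22, adjusted p = 0.0046) and 1.18 (SE 0.22, adjusted p = 0.00183), and *Lcat*, the plasma enzyme that esterifies cholesterol, fell by 0.54 with NSC (SE 0.18, adjusted p = 0.038). With NSC against vehicle none passed by the quasi-likelihood test or edgeR's exact test, 4 had an unadjusted p under 0.05 and 3 passed by DESeq2, with *Lcat* at -0.78 ± 0.18 (adjusted p = 0.0898) and *Ahsg* at -0.68 ± 0.20 (adjusted p = 0.125).

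Genes of the cytokine signals upstream of the acute phase moved in both directions. Of 27 listed, 23 were tested, and *Il6*, *Tnf*, *Osm* and *Il11* were left out with at most 0.518 CPM in any liver. With vehicle, 6 rose and 3 fell (median 0.21), and with NSC 3 rose and 6 fell (median -0.02). *Socs3*, the feedback inhibitor of gp130 signaling that STAT3 induces, was at 11.2, 14.9 and 5.81 CPM at baseline, 79.6, 82.5 and 62.3 CPM with vehicle and 33.3, 38.5 and 26.7 CPM with NSC. It rose in both groups, by 2.81 ± 0.30 (adjusted p = 0.000231) and 1.62 ± 0.29 (adjusted p = 0.00222). *Nfkbiz*, a nuclear cofactor of NF-κB, rose by 2.29 ± 0.35 with vehicle (adjusted p = 0.00168). *Lif*, an IL-6 family cytokine, rose by 3.34 ± 0.77 with vehicle (adjusted p = 0.00898) but reached a mean of 0.565 CPM only, and *Tnfrsf1a*, a receptor of TNF, rose by 0.87 ± 0.17 (adjusted p = 0.00312). *Osmr*, the oncostatin M receptor, rose in both groups, by 2.33 with vehicle (adjusted p = 0.0101) and 2.12 ± 0.49 with NSC (adjusted p = 0.0104). With NSC, *Il1a*, a form of IL-1, rose by 1.498 ± 0.34 (adjusted p = 0.0057).

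Other genes of this group fell. *Cebpa*, a C/EBP factor of mature hepatocytes, fell by 1.55 (SE 0.22, adjusted p = 0.000687) with vehicle and 1.32 (SE 0.22, adjusted p = 0.00105) with NSC. *Il1rap*, the accessory chain of the IL-1 receptor, fell by 0.91 (SE 0.16, adjusted p = 0.00242) and 0.71 (SE 0.16, adjusted p = 0.00578). The glucocorticoid receptor gene *Nr3c1* fell by 0.42 with vehicle (SE 0.14, adjusted p = 0.0413). *Nfkbia*, an inhibitor of NF-κB, fell by 0.76 with NSC (adjusted p = 0.0158). Comparing NSC with vehicle remnants, none of the 23 passed by the quasi-likelihood test, 10 had an unadjusted p under 0.05, 3 passed by DESeq2 and 2 by edgeR's exact test. *Nfkbiz* (-1.47 ± 0.34, adjusted p = 0.0907) and *Socs3* (-1.19 ± 0.29, adjusted p = 0.0917) were both lower in all 3 NSC than in all 3 vehicle livers.

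Receptors that bind the proteins of these genes were mostly low. Of 10 tested, 3 rose with vehicle, and 4 rose and 1 fell with NSC. *Lrp2*, which takes up lipocalin 2 among many ligands, rose to a mean of 2.88 CPM with vehicle (2.45 ± 0.43, adjusted p = 0.0022) and 2.04 CPM with NSC (1.96 ± 0.44, adjusted p = 0.00488). *Tlr2* rose by 1.16 ± 0.30 (adjusted p = 0.0158) and 1.04 ± 0.30 (adjusted p = 0.0192), and *Tlr4* by 1.56 ± 0.49 (adjusted p = 0.0365) and 2.16 ± 0.49 (adjusted p = 0.00525). Both are Toll-like receptors that sense microbial products. *Fpr1*, a formyl peptide receptor of myeloid cells, rose with NSC (1.63 ± 0.37, adjusted p = 0.00573), and *Ager*, the receptor for advanced glycation end products, fell by 1.48 (SE 0.49, adjusted p = 0.0338) at a mean of 0.190 CPM. NSC against vehicle gave no call by the quasi-likelihood test, and 3 receptors had an unadjusted p under 0.05. *Scarb1*, the receptor of high-density lipoprotein, was at -0.58 ± 0.20 (adjusted p = 0.154) and *Fpr1* at 1.02 ± 0.36 (adjusted p = 0.166).

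Markers of the cell types of the liver were measured in the same libraries. Hepatocyte markers, led by *Alb*, summed to 110265 to 147604 CPM in all 9 livers. One of 8, *Ahsg*, rose with vehicle and with NSC, while *Tat*, an enzyme of tyrosine breakdown, fell in both (by 1.25, adjusted p = 0.0036, and 1.93, adjusted p = 0.000225). With NSC, *Cps1* of the urea cycle and the asialoglycoprotein receptor gene *Asgr1* fell as well (by 1.25, adjusted p = 0.00144, and 0.48, adjusted p = 0.0413). NSC against vehicle gave no call among the 8 by the quasi-likelihood test and 3 with an unadjusted p under 0.05, with *Ahsg* at -0.68 ± 0.20 (adjusted p = 0.125) and *Cps1* at -0.68 ± 0.22 (adjusted p = 0.14).

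Macrophage markers summed to 182 to 269 CPM at baseline, 185 to 338 CPM with vehicle and 340.3 to 591 CPM with NSC, so that they were highest in the group where *Saa3* was highest. Of 9, 2 rose with vehicle and 5 with NSC. The scavenger receptor gene *Marco* rose by 3.39 ± 0.59 (adjusted p = 0.00561) and 4.10 ± 0.60 (adjusted p = 0.0019). *Cd68*, a lysosomal protein gene, rose with vehicle (1.04 ± 0.28, adjusted p = 0.02), and *Cd5l*, *Vsig4* and *Timd4*, all markers of resident Kupffer cells, rose with NSC (1.39, 1.11 and 1.48, adjusted p = 0.000817, 0.00322 and 0.00397). In NSC against vehicle none passed by the quasi-likelihood test, 5 of the 9 had an unadjusted p under 0.05 (19.5% of all genes), 5 were higher in all NSC livers (10.3% of all genes), and the median was 0.72. *Vsig4* was at 1.10 ± 0.23 and *Timd4* at 1.399 ± 0.31 (adjusted p = 0.0849 for both). The lowest NSC liver was 1.01 times the highest vehicle liver for the macrophage sum. The part of macrophages in the *Saa3* difference was not tested.

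Mesothelial cells, which line the liver surface, had summed markers of 2.14 to 4.32 CPM at baseline, 25.1 to 30.5 CPM with vehicle and 1.13 to 26.9 CPM with NSC. NSC replicate 3 had the lowest sum of all 9 livers at 1.13 CPM, with *Saa3* at 386 CPM. NSC replicate 1 had the highest sum of the NSC group at 26.9 CPM, with *Saa3* at 382 CPM. The part of mesothelial cells in the *Saa3* difference was not tested. Of 6 markers, 4 rose with vehicle (*Upk1b* by 4.54 ± 0.99, adjusted p = 0.0104, *Gpm6a* by 2.56 ± 0.63, adjusted p = 0.0153, *Wt1* by 2.76 ± 0.76, adjusted p = 0.0226, and *Lrrn4* by 3.85 ± 1.05, adjusted p = 0.0302). With NSC, *Upk1b* (3.82 ± 1.00, adjusted p = 0.0161) and *Gpm6a* (2.27 ± 0.63, adjusted p = 0.0186) rose. Between the remnants none passed, and none had an unadjusted p under 0.05 by the quasi-likelihood test, with *Wt1* at -1.296 ± 0.68 (adjusted p = 0.313) and *Msln* at -1.21 ± 0.95 (adjusted p = 0.515).

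Neutrophil markers, of interest because *Lcn2* is also a protein of neutrophil granules, summed to 2.26 to 7.36 CPM at baseline, 8.97 to 17.0 CPM with vehicle and 12.2 to 19.4 CPM with NSC. The granule genes *Camp*, *Ltf*, *Ngp* and *Mpo* and the surface marker *Ly6g* had at most 0.475 CPM in any liver and were not tested. Of the 6 tested, 2 rose with vehicle (*Retnlg* by 2.74 ± 0.57, adjusted p = 0.00489, and *Mmp8* by 2.64 ± 0.76, adjusted p = 0.0247). With NSC 4 rose, *Retnlg* (3.08 ± 0.57, adjusted p = 0.00178), *Mmp8* (3.26 ± 0.74, adjusted p = 0.00559), *S100a8* (2.35 ± 0.61, adjusted p = 0.0135) and *S100a9* (1.41 ± 0.40, adjusted p = 0.0192). Between the remnants none passed, and none had an unadjusted p under 0.05 by the quasi-likelihood test, with *S100a8* at 0.72 ± 0.56 (adjusted p = 0.496) and *Mmp8* at 0.62 ± 0.59 (adjusted p = 0.58). *Lcn2* itself was at 747 CPM or more in every remnant, and the part of neutrophils in it was not tested.

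Cholangiocyte markers summed to 37.8 to 40.7 CPM at baseline, 76.0 to 115 CPM with vehicle and 79.1 to 122 CPM with NSC. Of 5 tested, 4 rose with vehicle, namely the keratins *Krt19* (2.07 ± 0.33, adjusted p = 0.00113) and *Krt7* (2.77 ± 0.49, adjusted p = 0.00242), *Spp1* (1.14 ± 0.21, adjusted p = 0.00311) and *Sox9* (1.302 ± 0.32, adjusted p = 0.0124). With NSC 3 rose, *Spp1* (1.35 ± 0.22, adjusted p = 0.000874), *Krt7* (1.75 ± 0.49, adjusted p = 0.0174) and *Krt19* (0.99 ± 0.33, adjusted p = 0.035). None differed between the remnants by the quasi-likelihood test, and 2 had an unadjusted p under 0.05, *Krt19* (-1.08 ± 0.31, adjusted p = 0.119) and *Krt7* (-1.02 ± 0.45, adjusted p = 0.237).

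The lists were counted again without baseline replicate 2. With vehicle against baseline, other positive acute phase genes had 15 rising and 0 falling (median 1.31), negative ones 1 and 1, and signal genes 6 and 2. With NSC the numbers were 10 and 1 (median 0.93), 0 and 1, and 4 and 5. Receptors had 2 rising with vehicle, and 3 rising and 1 falling with NSC. Rising markers with vehicle and with NSC numbered 1 and 0 for hepatocytes, 1 and 5 for macrophages, 3 and 0 for mesothelial cells, 1 and 5 for neutrophils and 4 and 1 for cholangiocytes, and falling ones 1 and 2 for hepatocytes. Of the genes named above, *Trf*, *Nr3c1*, *Tlr4*, *Mmp8*, *Cd68* and *Lrrn4* no longer passed with vehicle. Those that no longer passed with NSC were *Itih3*, *Ahsg*, *Lcat*, *Tlr2*, *Asgr1*, *Upk1b*, *Gpm6a*, *Krt7* and *Krt19*. All had the same sign as before. The share of all genes that passed fell as well, from 23.7% to 18.9% with vehicle and from 34.7% to 28.7% with NSC.

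**Figure D5:**
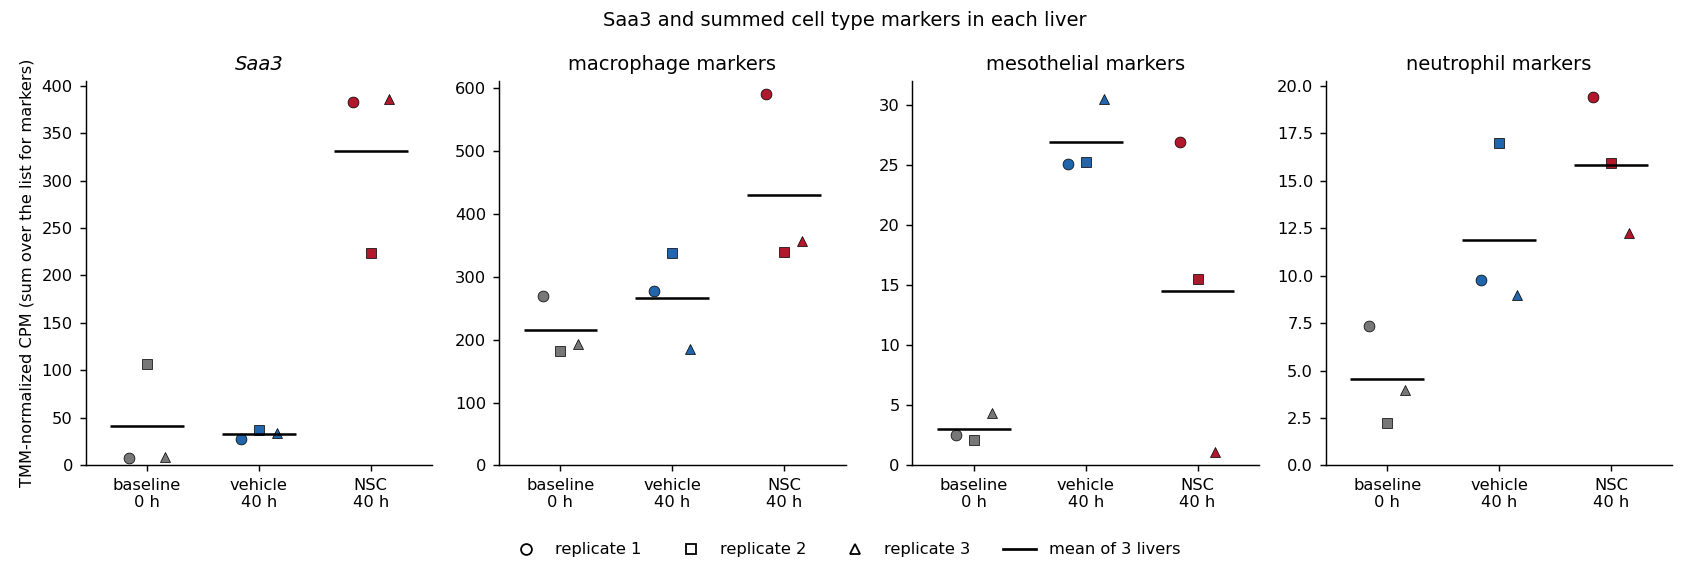
TMM-normalized CPM of *Saa3* and the summed CPM of macrophage, mesothelial and neutrophil markers in each of 9 livers (linear axes from 0), with black lines at the mean of 3. *Saa3* is 224 to 386 CPM in NSC remnants and at most 37.0 CPM in vehicle remnants. The mesothelial sum is 26.9, 15.5 and 1.13 CPM in NSC replicates 1 to 3.

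The genes whose levels followed those of *Saa1* and *Saa3* most closely were found by Pearson's r of log2 CPM over the 9 livers, which share the 3 groups and baseline replicate 2, and the values are a description. With *Saa1* these were *Mss51* (r = 0.98), *Gyg* (0.97), *1810013L24Rik* (0.96), *Dph5* (0.96) and *Rab27a* (0.96). *Rab27a*, a GTPase of secretory granule transport, was at 1.23, 2.08 and 1.22 CPM at baseline, 2.13, 3.81 and 4.17 CPM with vehicle and 4.65, 5.26 and 3.84 CPM with NSC. With *Saa3* they were *Chil1* (r = 0.96), *Ubxn8* (0.96), *Dcaf12* (0.94), *Mas1* (0.93) and *Cbwd1* (0.92). *Chil1*, a secreted chitinase-like protein, was at 0.190, 0.824 and 0.198 CPM at baseline, 0.751, 0.881 and 0.775 CPM with vehicle and 2.61, 2.89 and 3.21 CPM with NSC. In all 10 of these genes, as in *Saa1* and *Saa3*, baseline replicate 2 was the highest baseline liver. The genes were picked for following *Saa1* or *Saa3* over these same livers, so this order comes with the choice. *Mss51* and *Mas1* were low, with at most 0.849 and 0.870 CPM in any liver.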

How the data were processed

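Whole-liver RNA was sequenced as 9 stranded poly(A) libraries. The authors aligned reads with STAR 2.6.1, assigned them to genes with Subread 1.5.1 and left the gene counts unnormalized, a column for every library, in the deposited table. The deposited FPKM equals the count divided by gene length (plus 1 base) and the library total, with a largest relative difference of 4.96e-10 from the recomputed value. The notes name a human genome, but gene identifiers and coordinates are mouse (GRCm38).

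Counts were fitted in R 4.3.3 with edgeR 4.0.16, with TMM scaling, filterByExpr, all 9 libraries in 1 robust quasi-likelihood fit and Benjamini-Hochberg adjustment over 15024 genes. "Rose" and "fell" mean an adjusted p under 0.05. Python 3.11.15 (pandas 2.3.3, matplotlib 3.10.9) served for sequences and plots. The code was tested on simulated data. Alternatives included DESeq2 1.42.0, other scalings and filters, and leaving out each library. The receptor and marker lists and the baseline FPKM order without baseline replicate 2 were added after seeing the data. Genes named beyond the 10 are, per list and comparison, up to 4 per direction with the smallest adjusted p, or the 2 smallest p where none passed, and the 5 most like *Saa1* and *Saa3*. A gene that the rule names is not reported here. Members and lists were chosen with earlier results of these data known. The p-values measure only the spread between these samples, and a same-numbered baseline and vehicle remnant could be 1 mouse.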

Additional observations from a re-analysis of the deposited data

How the results depend on the processing

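Of 510 fold changes of the 10 genes under alternatives, 500 moved by less than the spread between livers, and the other 10 moved when baseline replicate 2 was left out. Leaving out 1 library gave 4 to 8 of the 10 genes called for vehicle against baseline, 3 to 8 for NSC against baseline (3 without baseline replicate 1, without baseline replicate 3 or without NSC replicate 2, and 8 without baseline replicate 2) and 0 to 1 between remnants. The same ranges were 11 to 16, 8 to 12 and 0 to 2 (2 without NSC replicate 1) for other positive acute phase genes, 2 to 4, 1 to 4 and 0 to 1 for negative ones, and 7 to 9, 6 to 11 and 0 to 0 for signal genes. Of all genes, 14.8% to 29.5%, 23.4% to 33.9% and 0% to 6.46% were called when 1 library was left out, in the same order of comparisons. For negative genes with NSC against baseline, 1 was called without each baseline library in turn. Also requiring an absolute log2 fold change over 1.5 left 3 of the 10 with vehicle, 8 and 4 other positive genes with vehicle and NSC, 0 and 0 negative genes, and 5 and 2 signal genes, as fewer genes can meet both limits. Between remnants, DESeq2 called 4 other positive, 3 negative and 3 signal genes, and 5 negative genes with NSC against baseline. EdgeR's exact test called 1 of the 10, 3 other positive and 2 signal genes, a fit of only the 2 groups called 1 of the 10, and no filter on low counts called 2 other positive genes and 1 negative gene. The causes were not tested. Over all genes, calls between remnants ran from 0 to 994 (725 by DESeq2, 256 by the exact test, 994 without NSC replicate 1) against 6. Scaling by library size only shifted the median of all genes to 0.15 for NSC against baseline and 0.14 between remnants. Whether a shared replicate number marks 1 mouse is not stated, and the samples were not treated as paired. The correlation of same-numbered deviations was -0.048 to 0.13, above 0 in 8 of 9 pairs and above 0.1 in 1. Only a baseline and a vehicle remnant could be 1 mouse, as the baselines came from vehicle-treated mice. Those pairs were at 0.081, 0.070 and -0.048 for replicates 1 to 3. The value of 0.13 was from a vehicle and an NSC remnant, which are different mice. With the replicate block, 1 signal gene was called between remnants and no other count moved beyond 1.5 times. Depth allowed no statement on genes under 3 counts, or 0.0751 to 0.117 CPM.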

Other observations

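Other genes of the acute phase lists were also high in baseline replicate 2, and these were chosen after their values had been seen. *Hamp*, the gene of the iron hormone hepcidin, was at 245, 1161 and 409 CPM in baseline replicates 1 to 3, and replicate 2 was 4.46 times the mean of the vehicle remnants. *Il1r1*, the signaling receptor of IL-1, was at 30.7, 116.7 and 20.1 CPM, and *Il6ra*, the receptor of IL-6, at 26.0, 65.5 and 23.2 CPM. The metallothionein genes *Mt1* and *Mt2*, which bind zinc, were at 3.30 and 3.70 times the mean of the other 2 baseline livers. In contrast, *Fga*, *Fgb* and *Fgg* were within 0.919 to 1.04 times that mean, and *Lbp* was at 1.00 times.

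NSC replicate 3 was the lowest NSC liver for 6 of the 10 genes and the highest for *Saa3*. Among other acute phase genes chosen after their values had been seen, it was also lowest for *Serpina3n*, a serine protease inhibitor (2638, 2041 and 999 CPM in NSC replicates 1 to 3), *Steap4*, a metalloreductase (649.6, 818 and 304 CPM), and *Fgb*, the β chain of fibrinogen (12271, 13583 and 8134 CPM). *Hamp* was highest there (244.5, 313.5 and 550.4 CPM).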
